A study of Homo sapiens with 6 samples.

Results

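The genes described here are 9 components of Toll-like receptor signalling: the receptors TLR2, TLR4 and TLR6, the adaptors MYD88 and TICAM1, the kinases IRAK1, IRAK2 and IRAK4, and the ubiquitin ligase TRAF6. They were chosen by symbol, each matched exactly 1 of the 29889 genes with a count in the series, and all 9 passed the filter on low counts, TLR2 only through its Control libraries. A549, a human lung adenocarcinoma cell line, was transfected with Lipofectamine 2000 in both groups, either with the pIRES-hrGFP-1a plasmid carrying CELF6 (CELF6-OE, 3 libraries) or with the empty plasmid (Control, 3 libraries), and RNA was collected 48 h later. CELF6 is an RNA-binding protein of the CELF family, and the comparison of CELF6-OE with Control asks which transcripts differ in level when it is over-expressed. Polyadenylated RNA was sequenced from 3 biological replicates per group of this single cell line, and both groups carry a plasmid and the transfection reagent, so neither is an untreated culture.

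Toll-like receptors are membrane proteins that recognise microbial lipids, proteins and nucleic acids. A ligand brings their cytoplasmic TIR domains together, and the adaptor MYD88 then assembles a complex in which IRAK4 acts on IRAK1 and IRAK2. These kinases pass the signal to TRAF6, whose ubiquitin chains recruit the kinases that activate NF-kB. The adaptor TICAM1, also called TRIF, serves TLR3 and internalised TLR4 and leads to the interferon genes through TBK1 and IRF3. Lung epithelial cells carry several of these receptors at lower levels than myeloid cells, and MYD88 and the IRAK kinases also serve the receptors of the IL-1 family.

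The total count on genes was between 33748328 and 37920700 per library. CELF6 reached an FPKM (fragments per kilobase of transcript, scaled to the mapped fragments of the library) of 270.1, 295 and 172 in the CELF6-OE libraries and was listed at 0 in each Control library. The keratins and other epithelial markers fitted the label, with a summed FPKM of 6177 to 7029 in Control and 5041 to 5793 in CELF6-OE. At an adjusted p under 0.05, 4 of these 6 markers were lower in CELF6-OE, where 11.5% of all genes tested were. The 5 alveolar type II markers were each under an FPKM of 1 in every library. Of 9 leukocyte markers none reached an FPKM of 1, PTPRC was at most 0.01, and their sum was 0.73 to 0.89 in Control and 0.43 to 0.57 in CELF6-OE. The part of these markers in the results below was not tested. No library stood apart as a duplicate, since counts of libraries of the same group differed by 7.67 to 29.3 times the sampling noise (chi-square per degree of freedom).

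Among the 9 genes, MYD88, IRAK2 and TLR2 were lower in CELF6-OE and IRAK1 was higher at a Benjamini-Hochberg adjusted p under 0.05 in edgeR's quasi-likelihood test, in which 15847 genes were tested. By this adjusted p 11.5% of all genes tested were lower and 6.47% were higher. The methods of the study call a gene differentially expressed (DEG) when p is under 0.01 and the fold is 1.5 or more, and by this rule 2 of the 9 were down-regulated, MYD88 and TLR2, and 0 were up-regulated. TLR2 entered the test only because it was high enough in Control, with 0 CELF6-OE and 3 Control libraries at the filter's level, so its call is given as a description. Without TLR2 the other 8 genes held 2 that were lower by adjusted p and 1 DEG, MYD88. This DEG rule called 5.91% of all genes tested down-regulated and 1.36% up-regulated. The FPKM of the groups did not overlap for 5 genes that were lower and 1 that was higher, where 17.9% and 20.1% of the genes tested did so. Without TLR2 these counts were 4 and 1 of 8 genes. The median log2 fold change was -0.27 for the 9 genes and 0.011 for all genes tested. With 9 genes, these counts describe the list and do not set it apart from other genes. In bulk RNA, fewer cells expressing a gene and less RNA per cell cannot be told apart.

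**Figure D1:**
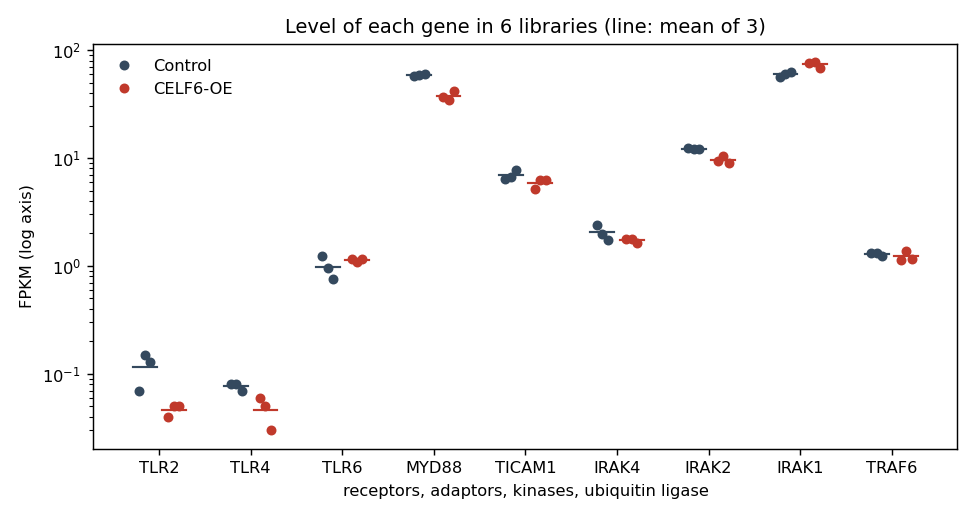
FPKM of the 9 genes (log axis) in each of 3 Control and 3 CELF6-OE libraries, with a line at the mean of each group. IRAK1 and MYD88 were the most abundant in both groups, TLR2 and TLR4 lay under 0.2 in every library, and the groups were apart for MYD88, IRAK2, IRAK1, TICAM1, TLR2 and TLR4.

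Levels were compared per length, in FPKM. In Control the order by mean FPKM was IRAK1 at 59.8 ± 3.25 (SD, n = 3), MYD88 at 58.9 ± 1.15, IRAK2 at 12.2 ± 0.16, TICAM1 at 6.92 ± 0.70, IRAK4 at 2.04 ± 0.34, TRAF6 at 1.29 ± 0.044, TLR6 at 0.98 ± 0.24, TLR2 at 0.117 ± 0.042 and TLR4 at 0.0767 ± 0.0058. IRAK1 and MYD88 differed by less than their spread in Control, and so did TLR2 and TLR4. In CELF6-OE the mean FPKM of IRAK1 was above that of MYD88, at 73.6 ± 4.64 against 37.7 ± 3.92, and the libraries of the 2 genes no longer overlapped. TRAF6 and TLR6, at 1.23 ± 0.14 and 1.14 ± 0.036, overlapped in CELF6-OE. The receptors had the lowest means in both groups, and the kinase IRAK1 and the adaptor MYD88 the highest.

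TLR2, TLR4 and TLR6 are the receptors of the list. TLR2 pairs with TLR1 or TLR6 to recognise bacterial lipopeptides, and TLR4 recognises lipopolysaccharide together with LY96 and CD14. TLR2 (ENSG00000137462, GRCh38 chromosome 4, 153684070 to 153706260, plus strand) was covered by 6, 8 and 8 reads in the CELF6-OE libraries, given here and below in the order of replicates 1 to 3, against 11, 25 and 22 reads in the Control libraries. Each CELF6-OE library was below each Control library, although Control replicate 1 was close to CELF6-OE. The log2 fold change of TLR2 was -1.31 (standard error, SE, 0.40, 95% interval -2.19 to -0.43), with an adjusted p of 0.0426 in edgeR's quasi-likelihood test. This call rests on few reads and on single libraries, and all 3 CELF6-OE libraries were under the filter's minimum count of 10, so a gene kept through Control alone had to be lower in CELF6-OE. The adjusted p of TLR2 was 0.102 with DESeq2 and 0.0616 with limma-voom, and it was between 0.0807 and 0.176 when CELF6-OE replicate 1, 2 or 3 or Control replicate 2 or 3 was left out.

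TLR4 (ENSG00000136869, chromosome 9, 117704175 to 117724735, plus strand) was covered by 11, 10 and 5 reads in CELF6-OE, against 15, 15 and 13 for Control. Its groups did not overlap, but the log2 fold change of -0.65 (SE 0.37) had a 95% interval of -1.45 to 0.16 and an adjusted p of 0.240 in edgeR's test, so a change was not detectable at this depth. The TLR4 co-receptor CD14 had a mean FPKM of 3.80 in CELF6-OE and 3.32 in Control. LY96, the protein on TLR4 that binds lipopolysaccharide, was covered by 5, 3 and 1 reads in CELF6-OE, against 8, 8 and 9 for Control, too few to pass the filter.

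TLR6 (ENSG00000174130, chromosome 4, 38822897 to 38856817, minus strand) was the only one of these receptors with an FPKM near 1. Its FPKM was 1.17, 1.10 and 1.15 in CELF6-OE and 1.23, 0.96 and 0.75 in Control. Control replicate 1 was above all CELF6-OE libraries and the other Control libraries below them. For TLR6 the log2 fold change was 0.19 (SE 0.15, 95% interval -0.14 to 0.52, adjusted p 0.404 in edgeR's test). TLR1, the alternative partner of TLR2, lies next to TLR6 and was lower in CELF6-OE by the DEG rule, with an FPKM of 0.72, 0.61 and 0.55 against 1.06, 1.09 and 0.78 in Control. The ratio of TLR6 to TLR1 in FPKM was 1.84 ± 0.24 (SD, n = 3) in CELF6-OE and 1.00 ± 0.14 in Control, and the libraries did not overlap (two-sided exact permutation test, p = 0.1, which is as low as 3 values per group can give). For TLR1 the log2 fold change was -0.67 (SE 0.18, adjusted p 0.0252 in edgeR's test). Leaving out CELF6-OE replicate 2 or 3 or Control replicate 2 gave TLR1 an adjusted p of 0.0912, 0.0788 and 0.120. The transcripts of the 2 genes share 69 windows of 150 nt, of 6549 in TLR6 (1.05%) and of 2702 in TLR1 (2.55%), and have 57 exonic bases in common in GENCODE v44, so the division of their reads is uncertain there.

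**Figure D2:**
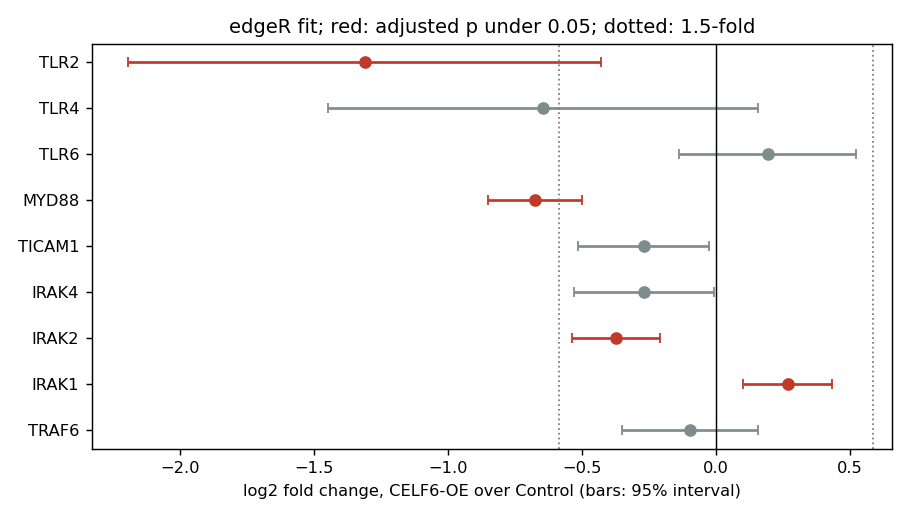
Log2 fold change of CELF6-OE over Control for each of the 9 genes, with its 95% interval from edgeR's quasi-likelihood fit and dotted lines at a 1.5-fold change. MYD88 and IRAK2 lie below 0 and IRAK1 above it with narrow intervals, and TLR2 and TLR4 have the widest intervals.

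MYD88 and TICAM1 are the adaptors of the list. The MYD88 arm is described mainly by NF-kB and the TICAM1 arm mainly by the interferon genes, but the arms are not fully separate. MYD88 (ENSG00000172936, chromosome 3, 38138552 to 38143024, plus strand) had an FPKM of 36.7, 34.4 and 42.1 in CELF6-OE, against 57.9, 58.8 and 60.2 for Control, from 3667 to 4270 and from 6302 to 6821 counts. All 3 CELF6-OE libraries were below all 3 Control libraries, and the Control libraries were close together. The mean FPKM was 36.0% lower in CELF6-OE (log2 fold change -0.67, SE 0.080, 95% interval -0.85 to -0.50), with an adjusted p of 0.00022 in edgeR's test. By the same rule at 1.5-fold MYD88 was a DEG in all 17 settings of the fit, with a log2 fold change from -0.76 to -0.61.

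TICAM1 (ENSG00000127666, chromosome 19, 4815932 to 4831712, minus strand) had an FPKM of 5.14, 6.22 and 6.26 in CELF6-OE and of 6.40, 6.65 and 7.71 in Control. The groups did not overlap, but CELF6-OE replicates 2 and 3 were close to Control replicate 1. The log2 fold change of TICAM1 was -0.27 (SE 0.11, 95% interval -0.51 to -0.025) with an adjusted p of 0.118 in edgeR's test, and the adjusted p was 0.0219 when Control replicate 1 was left out. The interval excludes a fall of 1.5-fold. The ratio of MYD88 to TICAM1 was 6.46 ± 0.83 (SD, n = 3) in CELF6-OE and 8.56 ± 0.66 in Control in FPKM, with no overlap between the groups (exact two-sided permutation, p = 0.1, again the lowest value possible).

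The promoters of the 9 genes, 250 bases before to 50 after the start site in RefSeq (GRCh38.p14), were searched on both strands. The motifs sought were an NF-kB site, the core of the interferon stimulated response element and the interferon gamma activated site. The sites in the promoters of the adaptors are shown here because they were the only matches among the 9 genes, with the matched bases in capitals.
MYD88, interferon response element core, chr3:38138590-38138619, plus strand: gcgcttctcgGAAAGCGAAAgccggcgggg
MYD88, GAS, chr3:38138584-38138613, plus strand: agggcggcgcTTCTCGGAAagcgaaagccg
TICAM1, NF-kB site, chr19:4831813-4831842, minus strand: gggcgacccgGGGACTTTCCcggtgctgcg
The core of the interferon stimulated response element (GAAANNGAAA) begins 61 bases before the RefSeq start site of MYD88 and occurs in 3.65% of 27305 promoters. The interferon gamma activated site (GAS, TTCNNNGAA), which overlaps it and begins 67 bases before the start, occurs in 7.88%. The NF-kB site of TICAM1 begins 120 bases before the start, and this motif occurs in 5.72% of promoters. The RefSeq start of MYD88 lies 109 bases inside the gene as given above from GENCODE v44, so both MYD88 matches lie within the GENCODE gene, while the starts of TICAM1 are the same. A match is a description of the letters in the window and not of binding.

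IRAK4, IRAK1 and IRAK2 are serine/threonine kinases of the MYD88 complex, of which IRAK4 acts first and IRAK2 has an atypical kinase domain. IRAK1 and IRAK2 moved in opposite directions. IRAK1 (ENSG00000184216, chromosome X, 154010506 to 154019902, minus strand) had an FPKM of 75.7, 76.9 and 68.3 in CELF6-OE and of 56.5, 60.0 and 63.0 in Control. Every CELF6-OE library was above every Control library, with CELF6-OE replicate 3 the closest to Control. The mean FPKM of IRAK1 was 23.1% higher, and its log2 fold change was 0.27 (SE 0.076, 95% interval 0.10 to 0.43) with an adjusted p of 0.0317 in edgeR's test. This call was lost without CELF6-OE replicate 1 (adjusted p 0.125), CELF6-OE replicate 2 (0.137) or Control replicate 2 (0.118), and the log2 fold change stayed between 0.20 and 0.33 over all 17 settings.

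IRAK2 (ENSG00000134070, chromosome 3, 10164919 to 10243745, plus strand) had an FPKM of 9.37, 10.5 and 8.96 in CELF6-OE and of 12.4, 12.1 and 12.2 in Control. The 3 Control libraries were close together and all above CELF6-OE. The log2 fold change of IRAK2 was -0.37 (SE 0.074, 95% interval -0.54 to -0.21) with an adjusted p of 0.00597 in edgeR's test. It was under 0.05 in all 17 settings, with a largest value of 0.0399. The change of IRAK2 did not reach 1.5-fold, so it was not a DEG, and its interval excludes a fall of that size.

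IRAK4 (ENSG00000198001, chromosome 12, 43758944 to 43798307, plus strand), the kinase that acts first in the complex, had an FPKM of 1.77, 1.78 and 1.62 in CELF6-OE and of 2.41, 1.98 and 1.74 in Control. The groups overlapped through Control replicate 3. Its log2 fold change was -0.27 (SE 0.12, 95% interval -0.53 to -0.0057), with an adjusted p of 0.144 in edgeR's test and of 0.0423 when Control replicate 3 was left out. The opposite-strand gene TWF1 covers 103 of its 7308 exonic bases, and the strand setting of the counting is not given in the sources used here.

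IRAK1 held a larger part of the IRAK family transcripts in every CELF6-OE library. Its share of the summed FPKM of IRAK1, IRAK2, IRAK3 and IRAK4 was 86.6% ± 0.51 (SD, n = 3) in CELF6-OE and 80.7% ± 1.33 in Control. IRAK2 had 11.3% ± 0.51 and 16.5% ± 0.77 of the sum, and IRAK4 2.03% ± 0.030 and 2.77% ± 0.57. The ratio of IRAK1 to IRAK2 was 8.08, 7.29 and 7.62 in CELF6-OE, against 4.57, 4.98 and 5.16 for Control. Each of these 4 measures had no overlap between the groups (two-sided exact permutation test, p = 0.1 for each, the smallest possible). For the ratio this was fixed in advance, since the FPKM of IRAK1 and of IRAK2 already did not overlap, in opposite directions. The shares are parts of the same sum, so they are not separate results, and the FPKM of IRAK4 itself overlapped between the groups. IRAK3, an inhibitory member found mainly in monocytes and macrophages, was at most at an FPKM of 0.04. The ratio of MYD88 to IRAK1 was 0.516 ± 0.088 in CELF6-OE and 0.987 ± 0.035 in Control.

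**Figure D3:**
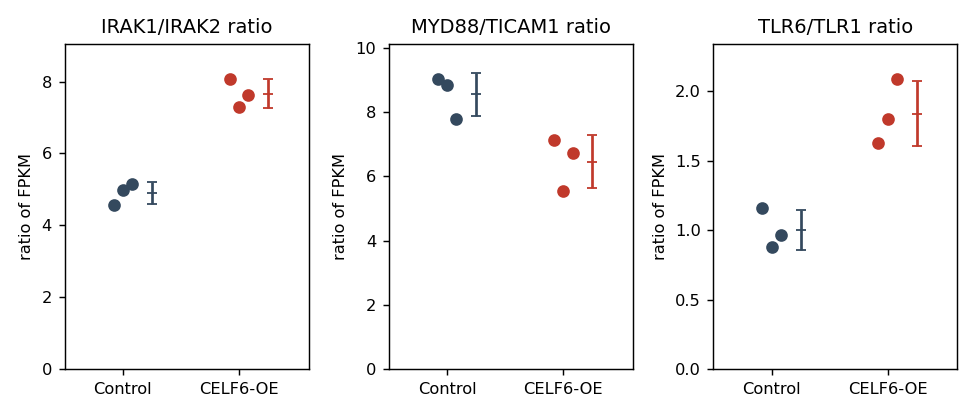
Ratios of FPKM of IRAK1 to IRAK2, MYD88 to TICAM1 and TLR6 to TLR1 in each library (points), with the mean and SD of 3 libraries beside them. The IRAK1 to IRAK2 and TLR6 to TLR1 ratios lie higher in all CELF6-OE libraries and the MYD88 to TICAM1 ratio lies lower in all of them.

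TRAF6 (ENSG00000175104, chromosome 11, 36483769 to 36510272, minus strand), the ubiquitin ligase on which the MYD88 and IRAK complex converges, had an FPKM of 1.14, 1.39 and 1.15 in CELF6-OE and of 1.32, 1.31 and 1.24 in Control. CELF6-OE replicate 2 was above all Control libraries and the other 2 below them. Its log2 fold change was -0.096 (SE 0.12, 95% interval -0.35 to 0.16) with an adjusted p of 0.600 in edgeR's test, so a change of 1.5-fold lies outside the interval in both directions.

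The other genes of the pathway were described by lists of their roles. These lists were written with earlier results of these data known, so their counts are a description and not a test. Of 76 symbols looked up, 73 had a gene with counts and 63 passed the filter. At an adjusted p under 0.05, 26 of the 63 were lower in CELF6-OE and 0 were higher, where 11.5% and 6.47% of all genes tested were. By the DEG rule 16 were down-regulated and 0 up-regulated, where 5.91% and 1.36% of all genes tested were, and these shares also stand behind the counts of the single lists that follow. Among the 47 tested genes that are not outputs of the pathway, 14 were lower at an adjusted p under 0.05 and 6 were DEGs, and their median log2 fold change was -0.12.

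Among the other receptors, 3 of 7 passed the filter and 2 of them, TLR3 and TLR1, were DEGs. TLR3, the endosomal receptor for dsRNA that signals through TICAM1, had an FPKM of 0.82, 0.75 and 1.23 in CELF6-OE and of 3.34, 2.82 and 2.34 in Control (log2 fold change -1.63, SE 0.18, adjusted p 0.000118 in edgeR's test). TLR10 had 9 to 19 counts in CELF6-OE and 9 to 14 in Control. TLR5 and TLR7 were at an FPKM of at most 0.06 and 0.02. The level of TLR9 is not given, since 99.7% of its exonic bases lie also in the same-strand gene ENSG00000173366. Of the receptor helpers, 3 of 5 tested were lower at an adjusted p under 0.05. LBP, the serum protein that delivers lipopolysaccharide to CD14, was covered by 77, 18 and 61 reads in CELF6-OE, against 344, 288 and 162 for Control (log2 fold change -2.26, SE 0.38). UNC93B1, which carries the nucleic acid sensing receptors to endosomes, differed by -0.46 on the log2 scale (SE 0.093), with a mean FPKM of 37.2 against 49.8. HSP90B1, a chaperone of these receptors, had a mean FPKM of 208 ± 12.1 (SD, n = 3) and 245 ± 40.1, and its adjusted p was 0.0770 in edgeR's test. This adjusted p was 0.0478 with DESeq2, and in edgeR's test 0.00147 without a filter and 0.00282 without Control replicate 3. In the other settings it stayed above 0.05.

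SARM1, a TIR protein best known as an NAD-consuming enzyme in axons, was the called member of the remaining TIR adaptors (log2 fold change -0.96, SE 0.10). Its exons share 4421 of 11105 bases with SLC46A1 (mean counts 1433 in CELF6-OE and 1341 in Control) and 120 with ENSG00000273171 (247 and 850), both on the opposite strand, and the strand setting of the counting is not given in the sources used here. TIRAP, which bridges TLR2 and TLR4 to MYD88, had a mean FPKM of 1.23 in CELF6-OE and 1.05 in Control. TICAM2, the bridge from TLR4 to TICAM1, had no gene with counts under its symbol and was not analysed here. It shares 78.7% of its exonic bases with the read-through gene TMED7-TICAM2.

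Of 19 kinases and ubiquitin enzymes between TRAF6, TICAM1 and the transcription factors, 3 were lower at an adjusted p under 0.05, 0 were DEGs and the median log2 fold change was -0.038. The 3 genes, named after their values were seen, were MAP3K8 (log2 fold change -0.45), IKBKE (-0.34) and RIPK1 (-0.27). UBE2V1 and ECSIT, the most abundant of the list, had log2 fold changes of 0.085 and 0.089, and 43.2% of the exonic bases of UBE2V1 lie also in the read-through gene PEDS1-UBE2V1. Of 6 tested inhibitors TNFAIP3, the deubiquitinase A20, was a DEG (log2 fold change -0.76, SE 0.10), TNIP1 had -0.37 (SE 0.066, adjusted p 0.00289 in edgeR's test), and SIGIRR, a negative regulator of these receptors, had 0.0017 (SE 0.097). Of 8 transcription factors, IRF7 was a DEG at -0.88 (SE 0.11), NFKB2 had -0.47 (SE 0.097), and IRF3, the factor activated through TICAM1, had a mean FPKM of 48.7 in CELF6-OE and 52.9 in Control with an adjusted p of 0.218 in edgeR's test. Leaving out Control replicate 1 gave IRF3 an adjusted p of 0.0220 in that test, and in the other settings it stayed above 0.05. BCL2L12 on the opposite strand covers 734 of the 3794 exonic bases of IRF3, with the same limit as for SARM1.

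**Figure D4:**
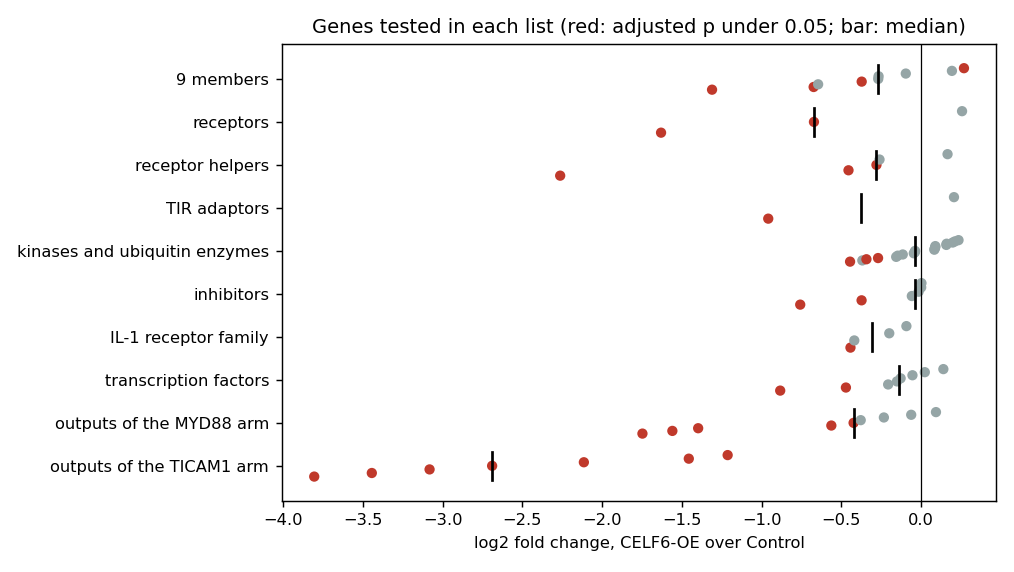
Log2 fold change of CELF6-OE over Control for each tested gene of the 9 described here and of 9 lists by role, with a bar at the median of the list and an adjusted p under 0.05 in red. The kinases and ubiquitin enzymes lie around 0, and the outputs of the TICAM1 arm lie between -3.81 and -1.21.

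The outputs of the adaptors' arms were set beside MYD88 and TICAM1. Of 9 tested outputs of the MYD88 arm, 3 were DEGs and 5 were lower at an adjusted p under 0.05, with a median log2 fold change of -0.42. IL6, CCL20 and ICAM1 had log2 fold changes of -1.75, -1.56 and -1.40, and the NF-kB inhibitor NFKBIA had -0.42 (SE 0.062). CXCL1, the most abundant chemokine of the list, had an FPKM of 88.1, 93.0 and 79.6 in CELF6-OE and of 84.0, 78.2 and 77.3 in Control, with an adjusted p of 0.374 in edgeR's test. All 7 outputs of the TICAM1 arm were DEGs, with a median log2 fold change of -2.69. IFIT2 and CCL5 had log2 fold changes of -2.69 (SE 0.18) and -3.81 (SE 0.27), and CXCL10 and IFNB1 had -3.44 (SE 0.26) and -3.08 (SE 0.26). Most of these outputs are also induced by other receptors, so the lists do not isolate an arm, and TICAM1 itself was not called. Both output lists were also written with earlier results of these data known.

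**Figure D5:**
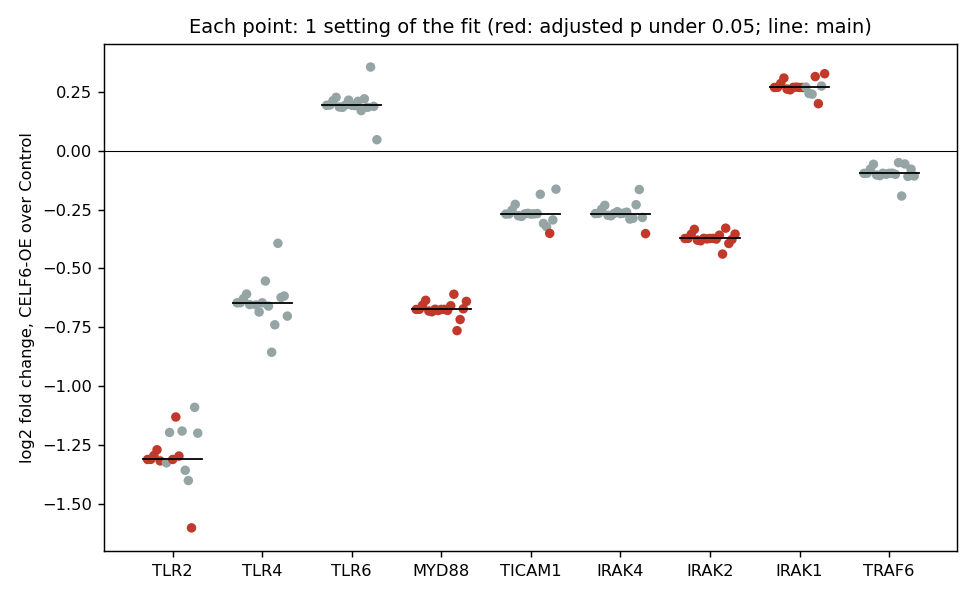
Log2 fold change of each of the 9 genes under each setting of the fit, that is the fit as reported (line), other scalings, filters and tests and each library left out, with an adjusted p under 0.05 in red. No gene crosses 0, MYD88 and IRAK2 are red in all 17 settings, and TLR2 is red in 9 of 16.

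No gene of the 9 changed direction under any setting tried. An adjusted p under 0.05 was found in 17 of 17 settings for MYD88 and IRAK2, 13 of 17 for IRAK1, 9 of 16 for TLR2, 1 of 17 for TICAM1 and IRAK4, and 0 for TRAF6, TLR4 and TLR6. The largest adjusted p of MYD88 was 0.0029. These tallies include the fit as reported and the fit with a prior count of 2. That prior count alters only the log2 fold change, so its adjusted p was bound to equal the reported one.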

How the data were processed

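RNA-seq libraries of 3 CELF6-OE and 3 Control cultures were analysed, grouped by their labels. Trimming by the authors used FASTX-Toolkit, alignment used TopHat2 with GRCh38, and reads at a unique location were kept. The authors deposited raw whole-number counts of reads for each gene, and FPKM values rounded to 2 decimals. Which tool did the counting, with which annotation release and strand setting, is not given in the sources used here. Symbols are those of the files, and coordinates are from GENCODE v44.

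TMM scaling was done with edgeR 4.0.16 under R 4.3.3. The 15847 genes kept by filterByExpr (minimum count 10) were tested with the quasi-likelihood test and adjusted by Benjamini-Hochberg over all of them. This filter departs from the use of all detected genes by the study, since without it edgeR estimated infinite prior degrees of freedom, so that the spread of a single gene did not enter its p. With it they were 7.15. DEGs were genes with a fold of 1.5 or more whose p was under 0.01. The study gives this rule in its methods and, in its results, another one with an FDR under 0.05 at the same fold, so calls by adjusted p under 0.05 are given beside it. Intervals are 95% intervals of the fit. FPKM served for levels between genes and for exact permutation tests. DESeq2 1.42.0, limma-voom (limma 3.58.1), other scalings and filters, a prior count of 2, removal of the CELF6 counts, a block for the replicate number, a DEG threshold at a fold change of 2, and the loss of any single library were the alternatives. The procedure was also run on simulated counts with a common dispersion of 0.0074 for every gene. Changes were placed only in genes with mean counts above those of TLR2 and TLR4, so it says nothing about genes with so few reads.

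The 9 genes, the pathway lists and the naming rule were chosen with earlier results of these data known. The rule names the 9 genes and, per list, up to 4 DEGs with the smallest p and the 2 most abundant genes that were not DEGs. It also names, for each DEG among the 9, the 3 genes with the highest correlation of log2 CPM. Exceptions are genes given as values for their role. Promoter sequences are from RefSeq, GRCh38.p14, with all 9 genes matched. The ratios of FPKM were added after the data were seen. The biological replicates are separate samples by the methods, but no source says how the cultures were separated.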

Additional observations from a re-analysis of the deposited data

How the results depend on the processing

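The 2 DEGs among the 9 genes became 1, MYD88, with DESeq2, with limma-voom, with a filter at 1 CPM in 3 libraries, which drops TLR2, and at a fold change of 2, where the 1 gene is TLR2. Leaving out single libraries gave 1 to 2 DEGs and 0 to 1 genes higher at an adjusted p under 0.05. No pairing by replicate number was seen in the counts. The deviations of same-numbered libraries from their group means correlated at -0.11, -0.076 and -0.13 over genes. These values cannot tell whether same-numbered cultures were handled together. With the replicate block the number of these genes higher at an adjusted p under 0.05 was 0, since IRAK1 had an adjusted p of 0.0620 in edgeR's test.

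Among the pathway genes, 1 was higher at an adjusted p under 0.05 with upper quartile scaling and 1 with library size only, against 0 as reported. Without single libraries 0 to 3 were higher by adjusted p and 0 to 1 by the DEG rule. A fold change of 2 left 480 down-regulated and 65 up-regulated genes of all tested. Without single libraries 155 to 348 genes were up-regulated DEGs, 1032 to 2370 were lower and 281 to 1906 higher at an adjusted p under 0.05. Values near 0 changed sign for SIGIRR without a filter (-0.0052) and with the CPM filter (-0.0084), and without single libraries for SIGIRR (-0.087 to 0.10), TLR10 (-0.031 to 0.48), ECSIT (-0.0018 to 0.19) and IL1R2 (-0.35 to 0.047). The cause was not tested. Depth limits TLR2 and TLR4, at 5 to 25 counts per library.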

Other observations

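The receptors of the IL-1 family use the same adaptor and kinases as the genes described above. Of 7 symbols, 4 were tested, and IL1R1, the signalling receptor for IL-1, was lower in CELF6-OE at an adjusted p under 0.05. Its FPKM was 2.09, 2.27 and 2.54 in CELF6-OE and 3.70, 3.10 and 2.42 in Control, so Control replicate 3 overlapped with CELF6-OE. The log2 fold change was -0.44 (standard error 0.13) with an adjusted p of 0.0362 in edgeR's test, which was 0.143, 0.119 and 0.122 without CELF6-OE replicate 1, CELF6-OE replicate 2 and Control replicate 2, and 0.0821 with library size only. The decoy receptor IL1R2 differed by -0.20 on the log2 scale (standard error 0.23). The list had a median log2 fold change of -0.31 over its 4 tested genes, against 0.011 over all genes tested.

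The genes whose log2 CPM followed MYD88 most closely over the 6 libraries, among 13191 genes, were CNP, ODF3B and PKDCC, with Pearson's r of 0.9996, 0.9994 and 0.9993. Their log2 fold changes were -0.73, -1.17 and -1.05. For TLR2 they were CELSR3, FAHD2CP and PITPNC1, with r of 0.992, 0.992 and 0.988 among 13192 genes and log2 fold changes of -0.28, -0.53 and -0.16. Of these only FAHD2CP had an adjusted p under 0.05 in edgeR's test (0.0471), against 0.0907 for CELSR3 and 0.172 for PITPNC1. The pattern of TLR2 rests on 6 to 25 reads per library, in a gene kept only through Control. Such correlations, the highest among all genes compared, describe a pattern over 6 libraries in 2 groups and carry no p.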
